A study of Mus musculus with 24 samples.

Results

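The 10 genes described here encode the stress-responsive transcription factor NRF2 (Nfe2l2), its inhibitor Keap1, and 8 enzymes of antioxidant defence, most of them known NRF2 targets: Nqo1, Hmox1, Gclc, Gclm, Srxn1, Txnrd1, Cat and Gpx1. They were chosen by name, with earlier results of these data known. Every probe whose gene name in the scanner files was exactly that of a member was taken, which gave 13 probes for 10 of the 37074 gene names on the array. The livers came from male C57Bl6J mice of the third generation of a breeding study, and 1 array was run per mouse. The reference group (STD_Cont, 9 mice) was of the lineage labelled Control fatty acid, raised with high-oleic sunflower oil, and ate the low-fat diet labelled STD. HFoleic mice (HFD_Cont, 8 mice) were of the same lineage and ate the high-fat, high-sucrose diet labelled HFD. HFepa mice (HFD_O3, 7 mice) ate HFD too, but came from the n-3PUFA lineage, raised with a fish oil whose main omega-3 fatty acid is eicosapentaenoic acid (EPA). All mice had been fasting when killed. The ages were not given in the sample labels. No array came from EPA-lineage mice on the low-fat diet, so the effects of diet and lineage cannot be told apart in HFepa against reference.

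In resting cells KEAP1 binds NRF2 and hands it to a ubiquitin ligase for degradation. Electrophiles and oxidants modify KEAP1, after which NRF2 accumulates, pairs with a small MAF protein and binds antioxidant response elements in its target genes. In liver this programme is known for renewing glutathione and thioredoxin and for handling reactive metabolites, while catalase and glutathione peroxidase remove hydrogen peroxide.

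Values are log2 signals, quantile normalised between arrays, with 1 value per probe and mouse. A probe was called at a Benjamini-Hochberg adjusted p under 0.05 in limma, adjusted over all 30003 tested probes of a comparison. Between 50.9% and 60.8% of probes per array were well above background, and 0 spots were saturated. The 12 tested member probes were well above background on 24 of 24 arrays. The remaining probe, a second one for Hmox1 at chr8:77620085-77620144 (mouse build mm9, as all probe positions here), was well above background on 3 of 24 arrays, 1 in each group, and was not tested. All 10 hepatocyte markers checked were measured, with a summed linear signal of 1110000 to 1230000 per array. Its brightest markers, Serpina1a and Alb (reference means 18.3 and 18.26), sit where quantile normalisation leaves arrays near-equal values. The narrow range is thus no measure of hepatocyte content. Cps1 (-0.89, adjusted p = 0.00166 in limma) and Tat (-0.63, adjusted p = 0.00858) were called lower in HFoleic than in reference. Of the other markers in that comparison, limma called the stellate Lrat higher (0.56, adjusted p = 0.0015). It called the bile duct Sox9 (-0.65, 0.0279), the T cell Cd4 (-0.47, 0.0385) and the adipocyte Cidec (-1.72, 0.0243) lower. The part of these changes in the member values was not tested. Reference mouse 5 stood apart. Its median correlation with the other arrays was the lowest at 0.976, and its summed signals of bile duct markers (10800) and stellate cell markers (12200) lay above the highest of the other 23 arrays (3370 and 5060), as did those of macrophage markers (63000 against 56600) and adipocyte markers (20900 against 17400). Its sum of sinusoidal endothelium markers (13200) lay below the lowest of the others (13900). Of the adipocyte and bile duct markers, Adipoq, Epcam and Cftr were not tested, which left 4 in each list. Linear sums weigh the brightest markers most. By mean log2 signal in reference, these were Cidec (12.9) among the adipocyte markers, with Plin1 at 5.92, and Spp1 (10.91) among those of bile duct, with Krt19 at 6.64. The part of these cell types in the member values of reference mouse 5 was not tested. Several of the values below are also given without it.

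The probes of Nfe2l2, Gclm and Gpx1 carried the calls, so the first 30 of the 60 bases of each are shown, with the position of the whole probe. The Nfe2l2 probe pair is printed because their differences from reference had opposite signs.
Nfe2l2 brightest probe, chr2:75513771-75513830, minus strand: ctcaagttaatttcttaggcaccatttggg
Nfe2l2 second probe, chr2:75529291-75529350, minus strand: gtgctctgtcacctttaatatcacaacaat
Gclm probe, chr3:121967737-121967796, plus strand: acctggcctcctgctgtgtgatgccaccag
Gpx1 probe, chr9:108242276-108242335, plus strand: actgcgctcatgaccgaccccaagtacatc

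The core of the antioxidant response element, TGACNNNGC, was searched on both strands of the RefSeq promoter windows (build GRCm38.p6, 250 bases before to 50 after each start), because the members are grouped by this factor. Of 32851 windows, 12.4% held it. Windows were available for 8 of the 10 genes, 10 windows in all, and 4 of these held 1 match each. The matches follow, each printed along the strand of its gene with the 9 matching bases in capitals. In Srxn1, Gclm and Txnrd1 the element lay on the opposite strand and reads GCNNNGTCA. A match is a run of letters and was not tested for binding.
Nfe2l2, chr2:75704884-75704913: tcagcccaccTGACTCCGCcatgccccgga
Srxn1, chr2:152105542-152105571: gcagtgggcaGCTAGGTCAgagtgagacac
Gclm, chr3:122245413-122245442: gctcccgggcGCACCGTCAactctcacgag
Txnrd1, chr10:82859104-82859133: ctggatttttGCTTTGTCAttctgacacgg

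HFoleic against reference asked what the obesogenic diet changed within the oleic lineage. Limma called 3 of the 12 member probes, those of Gpx1 and Gclm higher and the second Nfe2l2 probe lower, while 7.23% of all tested probes were called, 4.05% higher and 3.19% lower. Of the 10 genes, each read from its brightest tested probe, 7 were higher and 3 lower in HFoleic, with a median difference of 0.10 log2 units against -0.001 over all probes, and differences ran from -0.47 for Srxn1 to 0.47 for Gclc. The members that were not called still included Gclc, Srxn1 and Cat, each at an unadjusted p under 0.05, so that 6 of the 12 probes passed that looser limit, as did 21.1% of all probes. Without reference mouse 8, 6 member probes were called in place of 3. In that fit 3059 of all 30630 tested probes were called, against 2170 of 30003 with every array. Without reference mouse 5, 2 member probes were called, and 2185 of all 30339 tested probes. The fits without reference mouse 8, here and below, were picked after seeing the data. That omission gave the most calls in both comparisons with reference. Because whole liver was measured, fewer cells of a type and less RNA per cell cannot be told apart in any of these values.

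**Figure D1:**
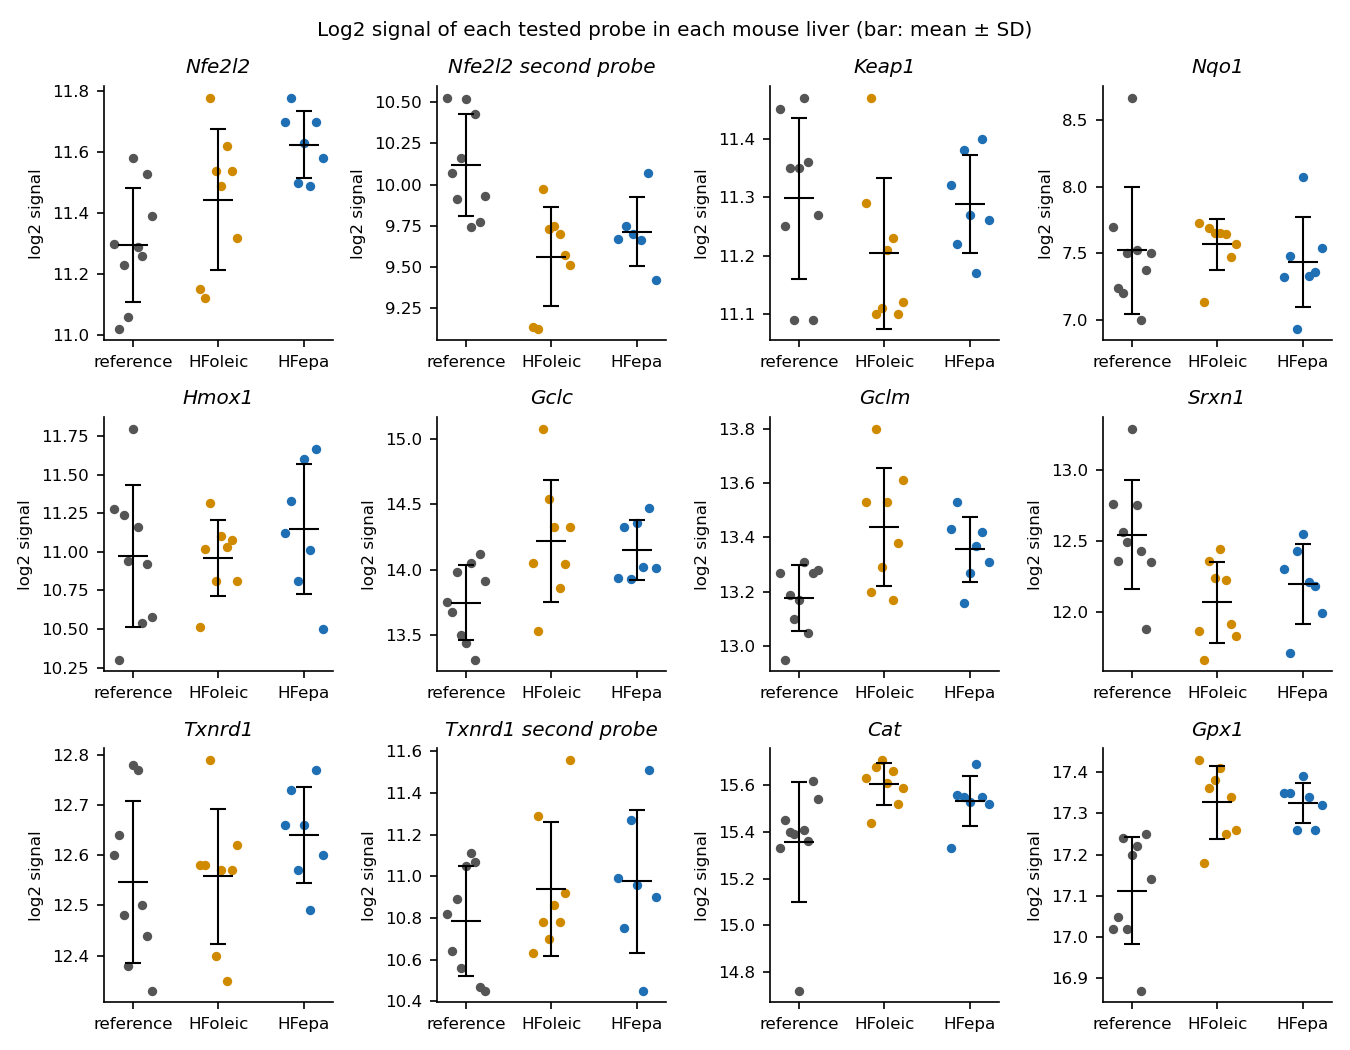
Log2 signal (y axis, own range in each panel) of the 12 tested member probes in the 9 reference, 8 HFoleic and 7 HFepa mice. Points are mice and bars the mean ± SD of a group. Gpx1 of every HFepa mouse lay above that of every reference mouse, and reference mouse 5 is the low point of Cat and the high point of Nqo1.

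Nfe2l2, the regulator itself, was read by a pair of probes that lay apart in its locus. On the brightest probe, which the array design assigns to NM_010902, the log2 signal had a lowest, median and highest value of 11.02, 11.29 and 11.58 in reference, 11.12, 11.52 and 11.78 in HFoleic, and 11.49, 11.63 and 11.78 in HFepa. The HFepa mice were in the upper part of the range of the other groups, and all groups overlapped. HFoleic was 0.15 ± 0.09 (SE) log2 units above reference (adjusted p = 0.354 in limma), and HFepa was 0.33 ± 0.09 above it, with 7 of 7 mice above the reference mean but an adjusted p of 0.0997 in limma. Without reference mouse 8, this HFepa difference was 0.36 with an adjusted p of 0.0491 in limma.

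The second Nfe2l2 probe, assigned to the Ensembl transcript ENSMUST00000152371, went the other way. The lowest, median and highest log2 signals of this probe were 9.74, 10.07 and 10.53 in reference, 9.12, 9.63 and 9.97 in HFoleic, and 9.42, 9.69 and 10.07 in the 6 HFepa mice with a value, since the spot of HFepa mouse 5 was marked as an outlier and left out. In HFoleic, 6 of 8 mice were below every reference mouse. The HFoleic mean of 9.56 ± 0.30 (SD, n = 8) was 0.56 ± 0.13 (SE) log2 units below the reference mean of 10.12 ± 0.31 (SD, n = 9), a fold of 0.679 (adjusted p = 0.0105 in limma). Within the 3 slides the difference was -0.93, -0.44 and -0.28. HFepa was 0.40 ± 0.14 below reference, with 6 of 6 mice below the reference mean and an adjusted p of 0.193 in limma. When both probes were averaged to 1 value for the gene, HFoleic was 0.20 below reference (adjusted p = 0.353), the reverse of the sign of the brightest probe alone. The files give no level for Nfe2l2 beyond these probes, and which transcripts each one detects was not tested.

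**Figure D2:**
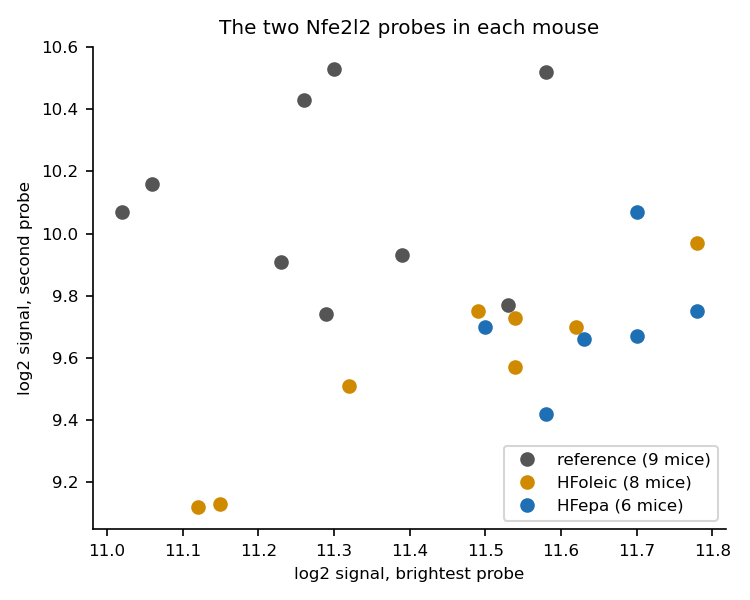
Log2 signal of the brightest Nfe2l2 probe (x axis) against that of the second probe (y axis), 1 point per mouse, in 9 reference, 8 HFoleic and 6 HFepa mice. On the y axis 6 of the 8 HFoleic mice lie under all reference mice, whereas on the x axis the HFepa mice lie between 11.50 and 11.78.

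For Keap1, the inhibitor of NRF2, the group means lay within 0.09 log2 units of each other. Its log2 signal ranged from 11.09 to 11.47 in reference, from 11.10 to 11.47 in HFoleic and from 11.17 to 11.40 in HFepa, and the groups overlapped fully. The differences from reference were -0.09 ± 0.06 (SE) in HFoleic (95% interval -0.22 to 0.04, adjusted p = 0.429 in limma) and -0.01 ± 0.06 in HFepa (-0.14 to 0.12, adjusted p = 0.977).

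Of the glutathione-synthesis pair, Gclm rose in HFoleic and Gclc did not pass the test. Gclm encodes the modifier subunit of glutamate-cysteine ligase, the first enzyme of glutathione synthesis. Across mice, its lowest, median and highest log2 signals were 12.95, 13.19 and 13.31 in reference, 13.17, 13.45 and 13.80 in HFoleic, and 13.16, 13.37 and 13.53 in HFepa. In HFoleic, 5 of 8 mice were above every reference mouse, and in HFepa 4 of 7 were. The rise in HFoleic was 0.26 ± 0.08 (SE) log2 units, a 1.20-fold level (adjusted p = 0.0403 in limma), and within the 3 slides it was 0.46, 0.28 and 0.10. This call sat close to the threshold, and with each of the 24 arrays left out in turn it was lost 10 times (adjusted p from 0.0197 to 0.0868). It was lost without HFoleic mouse 1, 3, 5, 7 or 8 (0.0761, 0.0845, 0.0708, 0.0521 and 0.0868) and without reference mouse 2, 3, 4, 5 or 7 (0.0739, 0.058, 0.0651, 0.0522 and 0.076). In HFepa, the difference of 0.18 ± 0.08 had an adjusted p of 0.328 in limma.

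Gclc, the catalytic subunit of the same ligase, had larger differences with a wider spread. Its lowest, median and highest log2 signals were 13.31, 13.75 and 14.12 in reference, 13.53, 14.19 and 15.08 in HFoleic, and 13.93, 14.02 and 14.47 in HFepa. HFoleic mice had the widest range and overlapped both other groups, and 7 of 8 HFoleic and 7 of 7 HFepa mice were above the reference mean. HFoleic was 0.47 ± 0.16 (SE) log2 units above reference (adjusted p = 0.0719 in limma) and HFepa 0.40 ± 0.16 above it (adjusted p = 0.273). Without HFoleic mouse 2, the lowest of its group, the HFoleic difference was 0.57 (adjusted p = 0.0228), and without reference mouse 8 it was 0.52 (adjusted p = 0.0424).

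The peroxide-removing enzymes came next. Gpx1 encodes the selenium-containing glutathione peroxidase of the cytosol, which reduces hydrogen peroxide at the expense of glutathione. Its lowest, median and highest log2 signals were 16.87, 17.14 and 17.25 in reference, 17.18, 17.35 and 17.43 in HFoleic, and 17.26, 17.34 and 17.39 in HFepa. All 7 HFepa mice and 7 of 8 HFoleic mice were above every reference mouse. HFoleic was 0.22 ± 0.05 (SE) log2 units above reference, a 1.16-fold level (adjusted p = 0.0148 in limma), and the call was kept with each array left out in turn (0.00768 to 0.0332). Scaling each array on its 75th percentile in place of quantile normalisation gave 0.19 (adjusted p = 0.0836). Within the 3 slides the rise was 0.29, 0.21 and 0.15. HFepa was 0.21 ± 0.06 above reference, and although the groups did not overlap, which held for 0.113% of all tested probes in that comparison, the adjusted p was 0.0791 in limma. Without reference mouse 8 it was 0.038, with a difference of 0.23.

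Cat encodes catalase, the peroxisomal enzyme that splits hydrogen peroxide. The log2 signal of Cat had a lowest, median and highest value of 14.72, 15.40 and 15.62 in reference, 15.44, 15.62 and 15.71 in HFoleic, and 15.33, 15.55 and 15.69 in HFepa. The lowest value was that of reference mouse 5, and the other reference mice started at 15.33. HFoleic was 0.24 ± 0.08 (SE) log2 units above reference (adjusted p = 0.081 in limma), with 8 of 8 mice above the reference mean, and the difference was 0.17 (adjusted p = 0.0681) without reference mouse 5 and 0.28 (adjusted p = 0.0364) without reference mouse 8. HFepa was 0.17 ± 0.09 above reference (adjusted p = 0.404) and 0.09 above it without reference mouse 5.

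Srxn1, or sulfiredoxin, repairs over-oxidised peroxiredoxins and is a strongly inducible NRF2 target, and its values ran lower on the obesogenic diet. Its lowest, median and highest log2 signals were 11.88, 12.49 and 13.29 in reference, 11.66, 12.07 and 12.44 in HFoleic, and 11.71, 12.21 and 12.55 in HFepa. All 8 HFoleic mice were below the reference mean, 3 of them below every reference mouse, and reference mouse 5 was the highest. HFoleic was 0.47 ± 0.15 (SE) log2 units below reference (adjusted p = 0.0536 in limma), just outside the threshold. The difference was -0.38 (adjusted p = 0.0862) without reference mouse 5 and -0.56 (adjusted p = 0.0114) without reference mouse 8. It also passed without HFoleic mouse 3 (0.0475), HFoleic mouse 5 (0.039) or HFepa mouse 2 (0.0447), the last of which enters the fit through the shared spread. HFepa was 0.34 ± 0.16 below reference (adjusted p = 0.329), with 6 of 7 mice below the reference mean, and differed by -0.25 without reference mouse 5.

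The probes of Nqo1, Hmox1 and Txnrd1 did not pass the test in any comparison. Nqo1 encodes a quinone reductase, one of the most used readouts of NRF2 activity. Its lowest, median and highest log2 signals were 7.00, 7.50 and 8.67 in reference, 7.13, 7.64 and 7.73 in HFoleic, and 6.93, 7.36 and 8.07 in HFepa. The groups overlapped, with reference mouse 5 above all others. The difference in HFoleic was 0.04 ± 0.17 (SE) log2 units (95% interval -0.30 to 0.39, adjusted p = 0.923 in limma), and 0.19 without reference mouse 5. In HFepa it was -0.09 ± 0.17 (-0.45 to 0.27, adjusted p = 0.882), and 0.05 without that mouse, so its sign rested on it.

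Hmox1, the inducible heme oxygenase, is made in macrophages of the liver as well as in hepatocytes. The log2 signal of Hmox1 had a lowest, median and highest value of 10.30, 10.94 and 11.80 in reference, 10.51, 11.03 and 11.32 in HFoleic, and 10.50, 11.12 and 11.67 in HFepa. The spread within a group was wider than any difference between groups. The difference from reference was -0.01 ± 0.18 (SE) log2 units in HFoleic (95% interval -0.38 to 0.35, adjusted p = 0.979 in limma) and 0.18 ± 0.18 in HFepa (-0.20 to 0.56, adjusted p = 0.744). Without reference mouse 5, the highest of all, they were 0.09 and 0.28. The HFoleic difference was near 0, and its sign reversed in 7 of the 24 fits with 1 array left out. The summed linear signal of the 9 macrophage markers ran from 20300 to 63000 over the 24 mice. Its group medians were 37000 in reference, 40400 in HFoleic and 39600 in HFepa. All 9 markers were measured and 0 were called in any comparison, but 9 of 9 were higher in HFepa than in reference, with a median difference of 0.25 log2 units, and the part of macrophages in the Hmox1 signal was not tested.

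Txnrd1 encodes the cytosolic thioredoxin reductase. On its brightest probe the lowest, median and highest log2 signals were 12.33, 12.50 and 12.78 in reference, 12.35, 12.57 and 12.79 in HFoleic, and 12.49, 12.66 and 12.77 in HFepa. The 3 groups covered nearly the same range. The differences from reference were 0.01 ± 0.07 (SE) log2 units in HFoleic (95% interval -0.13 to 0.15, adjusted p = 0.958 in limma) and 0.10 ± 0.07 in HFepa (-0.05 to 0.24, adjusted p = 0.614). The second Txnrd1 probe gave 0.16 ± 0.14 (adjusted p = 0.585) and 0.19 ± 0.15 (adjusted p = 0.63).

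HFepa against reference combined the diet with the EPA lineage, and it shared its 9 reference arrays with the previous comparison. Limma called 0 of the 12 member probes, while 0.393% of all tested probes were called. At an unadjusted p under 0.05 there were 6, those of Gpx1, both Nfe2l2 probes, Gclc, Gclm and Srxn1, and 13.5% of all probes. Of the 10 genes, 7 were higher and 3 lower, with a median difference of 0.17 log2 units against 0.005 over all probes. Without reference mouse 8, the probes of Gpx1 and the brightest of Nfe2l2 were called. In that fit the calls over all probes rose too, from 118 of 30003 to 496 of 30630. In 23 of the 24 fits with 1 array left out, 0 member probes were called.

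HFepa against HFoleic compared the EPA and oleic lineages on the same obesogenic diet. Without EPA-lineage mice on the low-fat diet, an altered response to the diet and a lineage difference present on either diet cannot be told apart. Limma called 0 of the 12 member probes and 0% of all tested probes, and 0 member probes had an unadjusted p under 0.05, against 9.7% of all probes. The differences ran from -0.13 for Nqo1 to 0.19 for Hmox1, 5 genes on each side of 0. The brightest Nfe2l2 probe was 0.18 log2 units higher in HFepa (95% interval -0.02 to 0.38, adjusted p = 0.558 in limma), with all 7 HFepa mice above the HFoleic mean. Gpx1 had a difference of 0.00 (95% interval -0.12 to 0.12), and differences beyond 0.12 lay outside this interval. The intervals were wider for Gclc (-0.42 to 0.28), Srxn1 (-0.20 to 0.46) and Hmox1 (-0.20 to 0.58).

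**Figure D3:**
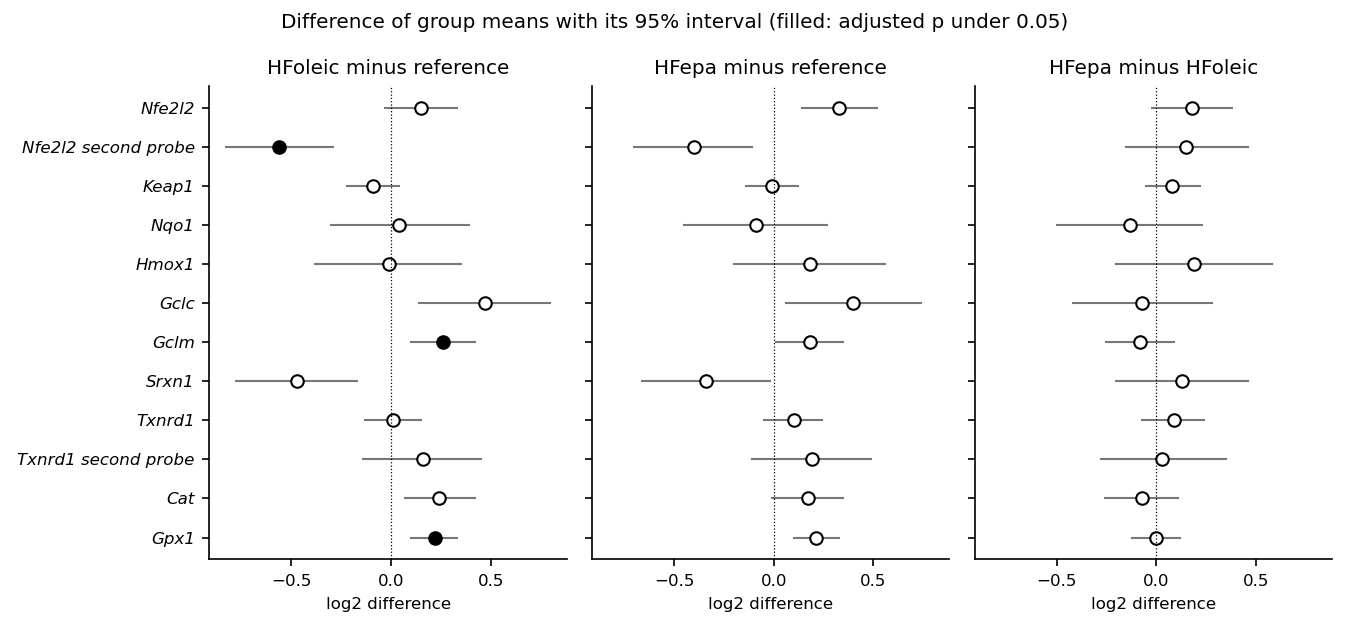
Difference of group means in log2 units (x axis) for the 12 tested member probes in the 3 comparisons, with 95% intervals from limma. Filled points passed an adjusted p under 0.05, which were Gpx1, Gclm and the second Nfe2l2 probe in HFoleic minus reference.

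Among mice of the same group, no pair of members passed the test for a shared variation, and Gclc with Gclm had the highest r with all mice included. Correlations were taken over the 24 mice with group means removed, for 45 pairs of members, with permutation within groups, two-sided. Pearson's r for Gclc with Gclm was 0.69 (permutation p = 0.00141, adjusted p = 0.0634) and Spearman's rho 0.58 (permutation p = 0.00629, adjusted p = 0.17). It was 0.48 without the 2 mice farthest from the median of Gclc, where Nfe2l2 with Hmox1 gave 0.57 by the same step, and 0.82, 0.71 and 0.57 within the 3 slides of 8 arrays each. Gclc with Gpx1 gave r = 0.54 (permutation p = 0.00789, adjusted p = 0.0963) and rho = 0.57 (permutation p = 0.0091, adjusted p = 0.17), with 0.53 without the 2 farthest mice and 0.40, 0.34 and 0.90 within slides. By permutation, 0 of the 45 pairs passed the adjusted threshold for either measure, with 14 pairs for r and 8 for rho at an unadjusted p under 0.05.

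Reference mouse 5 weighed on several of the other pairs. Nqo1 with Srxn1 gave r = 0.57 (permutation p = 0.0159, adjusted p = 0.107) but 0.20 without the 2 mice farthest from the median of Nqo1, and Nqo1 with Cat gave -0.54 (permutation p = 0.092, adjusted p = 0.23) but 0.14. These relations rest on those mice. With reference mouse 5 left out, a choice made after seeing the data, 2 pairs passed by permutation, Gclc with Gclm (r = 0.71) and Gclc with Gpx1 (r = 0.61), both at an adjusted p of 0.0468 over 23 mice. Nfe2l2 correlated with Gclc at r = 0.51 (permutation p = 0.0293, adjusted p = 0.11) over all mice, at 0.22 without the 2 farthest and at 0.63 (adjusted p = 0.0823) without reference mouse 5, while Keap1 correlated with Nfe2l2 at -0.27 (permutation p = 0.255, adjusted p = 0.37).

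**Figure D4:**
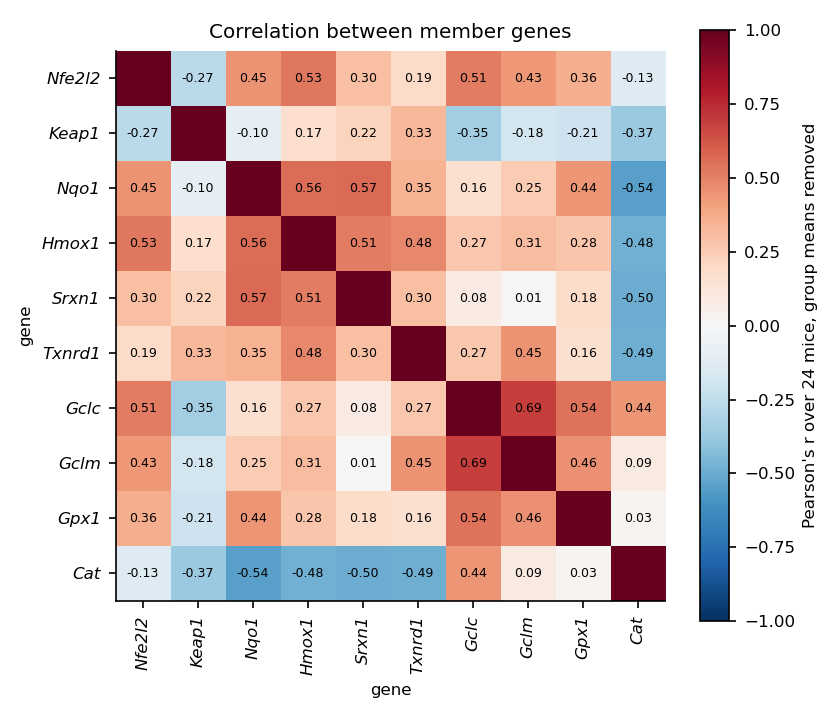
Pearson's r between member genes over 24 mice after removal of group means, by brightest probe (colour scale from -1 to 1, value in each cell). The gene order was set by hand, without clustering, and 0 of the 45 pairs passed the adjusted threshold. Pairs among Gclc, Gclm and Gpx1 ran from 0.46 to 0.69. Those among Nqo1, Hmox1 and Srxn1 ran from 0.51 to 0.57, and from 0.31 to 0.34 without reference mouse 5. Pairs between other genes were of similar size, such as Nfe2l2 with Hmox1 (0.53) and with Gclc (0.51). Cat is negative with Nqo1, Hmox1, Srxn1 and Txnrd1 (-0.54, -0.48, -0.50 and -0.49), values that were 0.20, -0.13, -0.11 and -0.31 without reference mouse 5.

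The genes whose signal followed a member most closely over the same 24 mice, out of 14405 genes, are given as a description of these arrays. For Gclc they were Mpp6 (r = 0.86), Aox1 (0.85) and Otud3 (0.85), and for Gclm Ybx1 (0.87), Akr1c19 (0.83) and Zfand3 (0.79). The aldehyde oxidase Aox1 and the aldo-keto reductase Akr1c19 are oxidoreductases. For Cat they were the nuclear receptor Nr1i3 (0.93), Hsd11b1 (0.92) and Aldh2 (0.91), which fell to 0.76, 0.69 and 0.74 without reference mouse 5. Those of Hmox1 were Myl12a, the cytokine receptor subunit Csf2rb2 and the lysosomal protease Lgmn, each at 0.83, and at 0.78, 0.79 and 0.81 without reference mouse 5. Nqo1 was followed by Gm15050 (0.90), Capns1 (0.89) and Cstb (0.89), at 0.79, 0.76 and 0.74 without reference mouse 5. The closest were Man1b1 for Gpx1 (0.79), Camk2n2 for Srxn1 (0.86, and 0.80 without reference mouse 5), Smarca5-ps for Txnrd1 (0.89), Kctd9 for Keap1 (0.78) and Fam162a for Nfe2l2 (0.78).

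Around the members, 8 lists of 136 genes of the same pathways were read in the same fits, and 130 had a tested probe. The lists were chosen with earlier results of these data known, so their share of calls is a description. In HFoleic against reference limma called 17 of these higher and 3 lower, 15.4% of them, beside 8.07% of all genes read from their brightest probe. The median difference of the 130 genes was 0.05 log2 units. In both comparisons with HFepa limma called 0, with 25 against reference and 15 against HFoleic at an unadjusted p under 0.05, a limit passed by 13.5% and 9.7% of all probes. Without reference mouse 5, 22 list genes were called in HFoleic against reference and 0 in the others.

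Of 15 regulators of NRF2 in HFoleic against reference, 3 were called higher and 0 lower, with a median difference of 0.00 over the list. Bach1, a heme-sensing repressor that competes with NRF2 for its sites, rose by 0.30 ± 0.08 (SE) log2 units (adjusted p = 0.0161 in limma), its relative Bach2, best known from lymphocytes, by 0.78 ± 0.12 (0.000714), and Mafg, a small MAF partner of both NRF2 and the BACH proteins, by 0.25 ± 0.06 (0.0168). The Bach2 signal was low, with a mean of 6.48 in reference and 7.26 in HFoleic. The reference means of Bach1 and Mafg were 9.82 and 13.01. The other 12 regulators did not pass the test. In HFepa the same genes differed from reference by 0.29, 0.45 and 0.14, with 0 called.

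Of 36 further NRF2 targets, 5 were called higher and 0 lower in HFoleic. They were Osgin1, an oxidative stress-induced growth inhibitor (1.02 ± 0.25 (SE) log2 units, adjusted p = 0.0126 in limma), the glutathione transferase Gsta3 (0.41 ± 0.10, 0.0122), thioredoxin Txn1 (0.29 ± 0.06, 0.00546), the NADPH-producing isocitrate dehydrogenase Idh1 (0.20 ± 0.06, 0.0316) and peroxiredoxin Prdx1 (0.17 ± 0.05, 0.0412). Their differences in HFepa were 0.85, 0.27, 0.17, 0.15 and 0.08, with 0 called. Of the 15 superoxide dismutases, peroxidases and peroxiredoxins outside the members, limma called 0, with 4 at an unadjusted p under 0.05. The smallest p-values there were those of Prdx6 (0.26 ± 0.08, adjusted p = 0.0575) and the mitochondrial superoxide dismutase Sod2 (0.18 ± 0.08, adjusted p = 0.193).

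In the thioredoxin and glutaredoxin systems, 2 of 14 genes were called higher and 1 lower in HFoleic. The methionine sulfoxide reductases Msrb1 (0.34 ± 0.06 (SE) log2 units, adjusted p = 0.00127 in limma) and Msra (0.29 ± 0.07, 0.0108) rose, and glutaredoxin Glrx fell (-0.68 ± 0.11, 0.000786). In glutathione supply, 2 of 12 were called higher and 1 lower, and the 2 that rose degrade glutathione: Chac1 (1.26 ± 0.26, 0.00535) and Chac2 (0.46 ± 0.10, 0.00729). Cth, which makes cysteine from cystathionine, fell (-0.80 ± 0.15, 0.00224). In HFepa, Chac1 differed from reference by 0.53, Glrx by -0.23 and Cth by -0.64 (adjusted p = 0.0543).

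The list for selenoprotein synthesis, on which Gpx1 and Txnrd1 depend, holds synthesis factors and some selenoproteins. Of its 13 genes, 1 was called higher and 1 lower in HFoleic. Selenok, a selenoprotein of the endoplasmic reticulum, rose by 0.28 ± 0.06 (SE) log2 units (adjusted p = 0.00379 in limma), and Eefsec, the elongation factor for selenocysteine, fell (-0.31 ± 0.08, 0.0142). Of 16 sources of reactive oxygen, 3 were called higher and 0 lower: the aldehyde oxidase Aox3 (0.58 ± 0.15, 0.0192), the monoamine oxidase Maob (0.38 ± 0.09, 0.00993) and the xanthine oxidoreductase Xdh (0.30 ± 0.08, 0.031). Among 9 heme and iron partners of Hmox1, the last enzyme of heme synthesis, Fech, was the single call (0.24 ± 0.06, 0.00897).

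**Figure D5:**
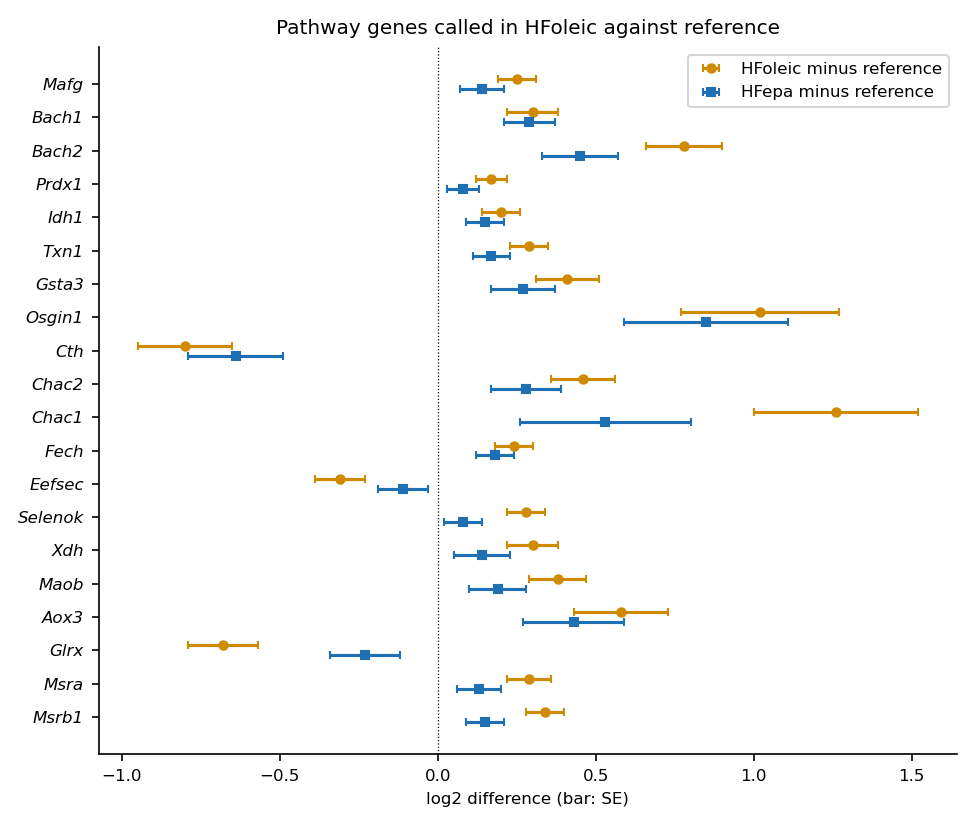
Log2 difference from reference (x axis, bars are SE) in HFoleic (circles) and HFepa (squares) of the 20 pathway genes called in HFoleic, grouped by list. Osgin1 and Chac1 lie above 1 in HFoleic and Cth at -0.80, and both comparisons use the same 9 reference mice.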

How the data were processed

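Liver RNA of 24 mice was hybridised in 1 colour (Cy3) to Agilent arrays. For each array the authors deposited the output of Agilent Feature Extraction 10.10.1.1, whose median, mean and processed signals are intensities, per the file headers, with 0 or 1 marks for outliers and background. A second deposited table holds log2 values, quantile normalised after a filter not given in the sources used here. It lists 12 of the 13 member probes and served as an alternative.

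Log2 median signals without outlier spots were averaged per probe and quantile normalised. Probes had to be well above background on 75% or more of the arrays in 1 or more groups. Groups came from the labels. Limma 3.58.1 (R 4.3.3) fitted group means over 24 arrays (lmFit, eBayes, two-sided contrasts), after tests on simulated data. Correlations used 100000 permutations. The number of arrays limits the precision. Genes were read from their brightest tested probe. List genes were named if called, up to 6 per list, otherwise the 2 with the smallest p, and neighbours were the 3 genes with the highest r. Members and lists were chosen with earlier results of these data known. Alternatives changed the background correction, scaling, filter, table, test (the methods' t-test), blocks (slide, slide row, replicate) and arrays included.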

Additional observations from a re-analysis of the deposited data

Results flagged for a closer look

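Within groups, 36 sets of values (12 probes in 3 groups) were checked for a lowest or highest mouse whose gap to its neighbour was large for the range of its group (Dixon's criterion at 95%), and 3 stood out. Chance gives about 1 in 20. Reference mouse 5 had a Cat log2 signal of 14.72, with the next reference mouse at 15.33, and an Nqo1 log2 signal of 8.67, with the next at 7.70. HFoleic mouse 2 had an Nqo1 log2 signal of 7.13, with the next HFoleic mouse at 7.47. The causes were not tested.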

How the results depend on the processing

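In HFoleic against reference, 1451 to 2305 probes were called over 10 alternatives and 1601 to 3059 with 1 array left out, against 2170; member probes numbered 2 to 3 (2 to 6) and list genes 16 to 24 (17 to 27). In HFepa against reference the 118 probes became 60 with the processed signal, 0 without the filter on dim probes, 0 by the methods' t-test (3473 unadjusted), 13 with only these groups in the fit, and 0 to 496 with 1 array left out (0 without HFepa mouse 2 or 6 or reference mouse 2, 496 without reference mouse 8); member probes stayed at 0 (0 to 2 with 1 array left out), as did list genes (0 to 3), also by the methods' t-test (5 and 22 unadjusted). In HFepa against HFoleic all counts were 0 over the alternatives (3484 probes unadjusted by the methods' t-test), and 0 to 14 probes were called with 1 array left out. Replicate numbers were not treated as pairs in the main fit. Same-numbered arrays correlated at -0.30 to 0.35, with 3 of 22 pairs over 0.1, all 3 among the 7 pairs of HFepa with reference. With the replicate number as a block the calls were 1747, 104 and 0 probes in the 3 comparisons, 3, 0 and 0 member probes and 16, 0 and 0 list genes; the block lost Gclm (0.28, adjusted p = 0.0672) and added Srxn1 (-0.50, 0.0114).

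Of the calls in HFoleic, the second Nfe2l2 probe passed in all 10 alternatives (0.00838 to 0.0402). Gpx1 missed the threshold with the processed signal (0.21, 0.0682) and 75th percentile scaling (0.19, 0.0836). Gclm also missed it with normexp correction (0.24, 0.0515), no filter (0.0807), the methods' t-test (0.0844) and only these groups in the fit (0.0729). Signs reversed near 0 for Hmox1 in HFoleic (0.06 with the processed signal, 0.03 with 75th percentile scaling), Keap1 in HFepa against reference (0.01, 0 and 0.01), Txnrd1 in HFoleic (-0.02, replicate block) and Gpx1 in HFepa against HFoleic (0, replicate block), and for Nfe2l2 in HFoleic with both probes averaged (-0.20). With 1 array left out, differences on both sides of 0 ran from -0.10 to 0.09 (Hmox1), -0.02 to 0.04 (Txnrd1) and -0.02 to 0.19 (Nqo1) in HFoleic, from -0.03 to 0.01 (Keap1) and -0.20 to 0.05 (Nqo1) in HFepa against reference, and from -0.06 to 0.12 (second Txnrd1 probe), -0.17 to 0.05 (Gclc) and -0.02 to 0.01 (Gpx1) in HFepa against HFoleic. Without reference mouse 5, chosen after seeing the data, 2 pairs of members passed in place of 0. The causes were not tested.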
